A study of Bos taurus with 20 samples.

Results

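The T and NK cell genes described here are CD3E, CD3D, CD3G, CD8A, CD2, KLRK1, NKG7, PRF1, GZMA and GZMB, 10 of the 20011 genes measured in the livers of 10 Holstein-Friesian cows. They were chosen by symbol as genes that T cells and natural killer (NK) cells use, and each was represented by its brightest probe set. All 10 were measured, and none was removed by a filter. The study fed late-pregnant cows a ration low in phosphorus (LP, 0.16% phosphorus of dry matter, with urea added to even out the nitrogen supply) or adequate in it (AP, 0.35%) through the final 4 weeks of the dry period, when a pregnant cow is rested from milking ahead of calving. Every cow of both diets was held to 11.5 kg of dry matter a day in that period, and from calving on all cows ate the same ration with adequate phosphorus. The 10 cows with arrays used here, out of 30 multiparous cows in the study, were 5 LP cows (A to E) and 5 AP cows (F to J). Each cow gave 1 liver sample postpartum and 1 antepartum, so the 4 groups (LP postpartum, AP postpartum, LP antepartum and AP antepartum) held 5 arrays each. The question put to these genes was whether the low phosphorus diet or calving moved them, and whether they moved together from cow to cow.

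T cells recognise their targets through an antigen receptor that signals by way of the CD3 chains, and NK cells through receptors encoded in the germline, such as KLRK1 (also called NKG2D). Both kinds of cell can kill by releasing granules, in which perforin (PRF1) opens the way into the target cell for proteases called granzymes. In mammals the liver sinusoids house T and NK cells among the hepatocytes, as well as resident macrophages. A signal from whole liver sums all of these cells, so fewer cells of a type and less RNA per cell cannot be told apart.

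The signals were on a log2 scale, on which a difference of 1 is a doubling, and signals of different probe sets were not compared with each other. Median signals of the 20 arrays lay between 5.97 and 6.14. Hepatocyte markers were high in every array, with a mean log2 signal of 14 markers between 11.7 and 12.2. The LP postpartum array of cow C stood apart: it alone spanned the first principal component, which held 24.8% of the variance, and its 8 fibroblast markers averaged 11.6, against at most 8.18 in any other array. Its 6 adipocyte markers averaged 8.83, against at most 5.07 elsewhere, and its 8 skeletal muscle markers 7.31, close to the 7.13 of cow F antepartum. For some of the results that this array moved, the value without it or without cow C is given as well. Tests were made in limma, which fits a linear model to each gene and draws the variance of each gene toward a common value. At the 0.05 threshold after Benjamini-Hochberg adjustment in limma, none of the 10 genes passed in any of the 6 comparisons.

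The 3 CD3 genes lie side by side on chromosome 15. The deposited annotation, for whose genome build no source used here gives a name, places CD3E at 29441567 to 29452182 on the plus strand, CD3D at 29456439 to 29460605 on the minus strand and CD3G at 29462572 to 29474078 on the plus strand. It also places KLRK1 at 100038296 to 100048947 on chromosome 5, where a RefSeq gene table (ARS-UCD2.0, used for order only) lists it next to the NK receptor genes NKG2A, NKG2C and KLRD1, and PRF1 at 26939280 to 26941721 on chromosome 28. GZMA lies at 24033746 to 24042721 on chromosome 20 and GZMB at 35135771 to 35137852 on chromosome 21, where genes named only by LOC numbers surround it in the RefSeq order. CD8A lies at 47988323 to 47995394 on chromosome 11, beside CD8B, CD2 at 26584422 to 26598906 on chromosome 3, near the gene of its ligand CD58, and NKG7 at 57812522 to 57815252 on chromosome 18. Each probe set covers probes spread over the gene, between 19 and 27 of them, except GZMB, which had 9. No probe set of the 10 was marked as cross-hybridizing.

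**Figure D1:**
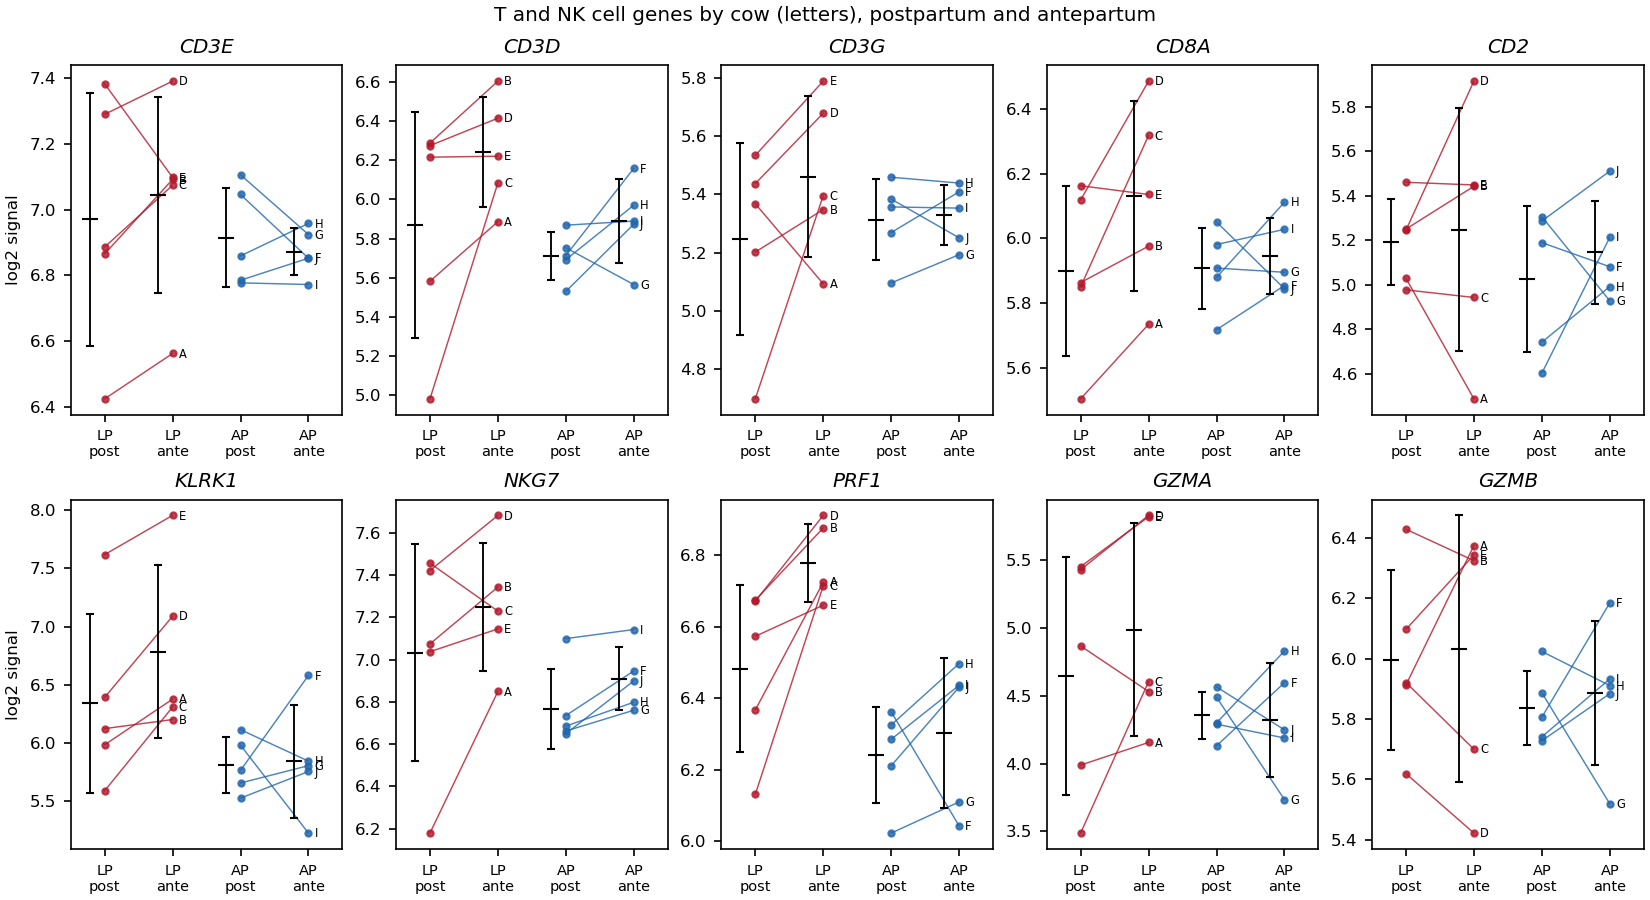
Log2 signal of each of the 10 genes in every array, with 1 panel per gene and its own vertical scale. Points are cows (letters), lines join the 2 arrays of a cow, and black bars give the group mean and SD (n = 5). Antepartum PRF1 is the panel in which all LP cows (6.66 to 6.91) lie above all AP cows (6.04 to 6.50).

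Before calving, while the diets differed, all 10 genes had a higher mean signal in LP than in AP livers. The median log2 difference of the 10 was 0.26, with a range of 0.10 (CD2) to 0.94 (KLRK1), whereas over all genes 48.9% were higher in LP and the median was -0.0031. No difference passed the adjusted threshold in limma (0 of 10, where 0.005% of all genes passed), and the adjusted p was 0.9999 for each gene. At an unadjusted p under 0.05, which 2.45% of all genes reached, PRF1 and KLRK1 were counted, 2 of 10, and the fit with the cow as a block also counted 2. The genes were chosen with earlier results of these data known and share cows, so their common direction is a description. All 13 macrophage markers measured were also higher in LP antepartum, and their part in these differences was not tested.

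PRF1, the pore-forming protein of the killing granule, had antepartum signals of 6.72, 6.88, 6.71, 6.91 and 6.66 in the LP cows, against 6.04, 6.11, 6.50, 6.44 and 6.43 in the AP cows. Every LP cow was above every AP cow, so the groups did not overlap. PRF1 was the 1 gene of the 10 of which this was true antepartum, where 0.26% of all genes had every LP array above every AP array. The LP mean was 6.78 ± 0.11 and the AP mean 6.30 ± 0.21 (SD, n = 5 each), a log2 difference of 0.47 with a standard error of 0.12 in limma (1.39-fold, 95% interval 0.23 to 0.72, adjusted p = 0.9999). Leaving out each cow in turn kept the difference between 0.41 and 0.52.

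KLRK1, an activating receptor that binds ligands displayed by stressed cells, gave the largest antepartum difference of the 10. Its signals were 6.38, 6.20, 6.31, 7.09 and 7.96 in the LP cows, against 6.58, 5.81, 5.85, 5.23 and 5.76 in the AP cows. LP cows D and E were above every AP cow, and the other 3 LP cows lay below AP cow F. The limma difference was 0.94 with a standard error of 0.34 (1.92-fold, 95% interval 0.24 to 1.65, adjusted p = 0.9999). Without cow E it was 0.65, and without cow F it was 1.13.

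GZMA, a granzyme of T and NK cells, showed the same pair of high cows. Its antepartum signals were 4.16, 4.53, 4.61, 5.83 and 5.82 in LP, against 4.60, 3.73, 4.83, 4.19 and 4.25 in AP. Cows D and E stood more than 1 log2 unit above the other LP cows, which lay within the AP range. The difference was 0.67 with a standard error of 0.36 (95% interval -0.07 to 1.41, adjusted p = 0.9999 in limma). The GZMA signals of the AP cows and of LP cows A, B and C lay below the lower quartile of gene means (5.06), with no detection call. GZMB, the other granzyme of the 10, did not follow GZMA. It read 6.37, 6.33, 5.70, 5.42 and 6.34 in LP, against 6.19, 5.52, 5.91, 5.93 and 5.88 in AP. Cow D, the highest for GZMA, was here the lowest of all 10 cows, and the AP range lay inside the LP range (difference 0.15, 95% interval -0.22 to 0.52).

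NKG7, a granule membrane protein of NK cells and cytotoxic T cells, read 6.85, 7.34, 7.23, 7.68 and 7.15 in LP, against 6.95, 6.76, 6.80, 7.14 and 6.90 in AP antepartum. LP cows other than cow A were above every AP cow, cow E only just, and the difference was 0.34 (95% interval -0.05 to 0.74, adjusted p = 0.9999 in limma). Among the CD3 chains, CD3E read 6.56, 7.09, 7.07, 7.39 and 7.10 in LP, against 6.85, 6.92, 6.96, 6.77 and 6.85 in AP. Cow A was again the exception, the lowest of all cows while the other 4 LP cows lay above every AP cow. The difference of CD3E was 0.17 (95% interval -0.15 to 0.50). CD3D differed by 0.35 (95% interval -0.07 to 0.77) with 3 LP cows above every AP cow, and CD3G by 0.13 (95% interval -0.17 to 0.43) with 2. CD8A, the alpha chain of the co-receptor of cytotoxic T cells, differed by 0.18 (95% interval -0.10 to 0.47), and the adhesion receptor CD2 by 0.10 (95% interval -0.33 to 0.53).

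The antepartum count of genes that reached an unadjusted p under 0.05 varied with the setting. Cow A was the lowest LP cow antepartum for CD3E, CD3D, CD3G, CD8A, CD2, NKG7 and GZMA, and without it 6 of the 10 genes reached that level, as did 2.34% of all genes, and the median difference was 0.37. Without cow C the count was 4 (3.48% of all genes). With all cows kept it was 5 when only the antepartum groups were fitted (3.76% of all genes) and 3 with array weights (5.2% of all genes). Without cow D it stayed at 2, and CD2 turned to -0.06. In none of these settings did a gene pass after adjustment.

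**Figure D2:**
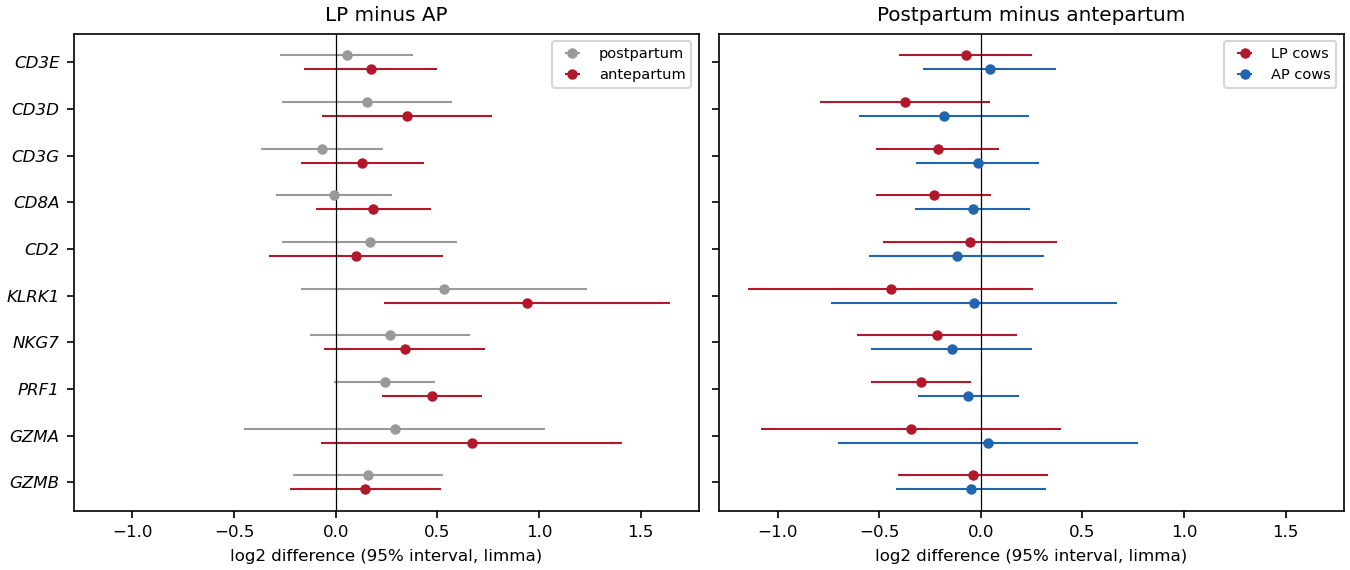
Limma log2 differences of the 10 genes with 95% intervals, from the fit without the cow as a block. The left panel gives LP minus AP, postpartum in grey and antepartum in red, and the right panel postpartum minus antepartum, LP cows in red and AP cows in blue. The antepartum diet differences all lie above 0, from 0.10 to 0.94, and the LP changes across calving all lie below 0, from -0.44 to -0.04, while most intervals include 0.

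After calving, when all cows ate the same ration, 8 of the 10 genes had a higher mean in LP than in AP cows, with a median difference of 0.16 against 0.0025 over all genes. None passed the adjusted threshold in limma (0 of 10, where 0.005% of all genes passed, lowest adjusted p = 0.812). None reached an unadjusted p under 0.05 (5.66% of all genes did), with or without the cow as a block, and none had all LP cows above all AP cows (0.415% of all genes did). The array of cow C weighed on this comparison, since without it all 10 differences were above 0, with a median of 0.20, and 3 genes reached an unadjusted p under 0.05, as did 4.51% of all genes.

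PRF1 read 6.37, 6.67, 6.13, 6.67 and 6.57 in the LP cows postpartum, against 6.36, 6.02, 6.32, 6.29 and 6.21 in the AP cows. The LP cows other than cow C lay above every AP cow, cow A only just. The difference of 0.24 had a 95% interval of -0.01 to 0.49 (adjusted p = 0.812 in limma), and without the array of cow C it was 0.33. KLRK1 read 5.98, 6.12, 5.59, 6.39 and 7.62 in LP, against 5.77, 5.66, 6.11, 5.98 and 5.53 in AP. LP cows B, D and E were above every AP cow, cow B only just, and cow E was the highest at both times. The KLRK1 difference was 0.53 (95% interval -0.17 to 1.24), or 0.21 without cow E and 0.72 without cow C.

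GZMA postpartum again split the LP cows, with 3.99, 4.87, 3.49, 5.43 and 5.45, against 4.13, 4.49, 4.30, 4.29 and 4.57 in AP. LP cows B, D and E were above every AP cow, and LP cows A and C below every AP cow. The mean difference was 0.29 (95% interval -0.45 to 1.03), or 0.58 without cow C. NKG7 differed by 0.27, CD2 by 0.17, GZMB by 0.16, CD3D by 0.16 and CD3E by 0.06. Without cow C, CD3D differed by 0.38 and NKG7 by 0.16. CD8A and CD3G were at -0.01 and -0.07, or at 0.00 and 0.07 once the array of cow C was left out. None of these intervals excluded 0, which does not show that the diets gave equal levels.

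The spread between LP cows was wider than between AP cows. Antepartum, the SD was larger in LP for 9 of the 10 genes (all but PRF1), with a median ratio of LP to AP of 1.94, whereas 67.8% of all genes had the larger SD in LP and the median ratio was 1.31. Postpartum it was again 9 of 10 (all but CD2), with a median ratio of 2.47 against 1.32 over all genes. Without cow C the postpartum ratio was 2.78 for the 10 genes and 1.07 over all genes. GZMA had an SD of 0.88 among the LP cows and 0.17 among the AP cows postpartum, and KLRK1 0.77 and 0.24.

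Averaged over the 10 genes, the log2 signal lay between 5.60 and 6.35 in LP cows and between 5.75 and 5.81 in AP cows postpartum. Antepartum it lay between 5.82 and 6.48 in LP cows and between 5.64 and 5.97 in AP cows. Cow D was the highest of the 10 cows for 6 genes antepartum and cow E for 2, and postpartum cow E was highest for 6 and cow B for 3. No AP cow was the highest for any of the 10 genes at either time.

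Across calving, all 10 genes had a lower mean postpartum than antepartum over both diets, with differences from -0.28 (CD3D) to -0.02 (CD3E) and a median of -0.14, against -0.0118 over all genes, of which 46.1% were higher postpartum. None passed in limma (0 of 10, where 1.5% of all genes passed, lowest adjusted p = 0.411). At an unadjusted p under 0.05, which 11.9% of all genes reached, 1 of 10 was counted, PRF1. With the cow as a block the count was 3 of 10, CD3D, NKG7 and PRF1, where 13.7% of all genes reached that level, and the lowest adjusted p was 0.236. In the fit without the block, dropping the outlying array of cow C moved the median to -0.09. The count then fell to 0, although 13.7% of all genes reached that level. Leaving out cow A, C, D, H, I or J entirely also gave a count of 0. It stayed at 1 when cow B, F or G was left out, and was 2 when cow E was.

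PRF1 was lower postpartum in 9 of 10 cows. Its changes were -0.36, -0.20, -0.58, -0.24 and -0.09 in LP cows A to E, and 0.32, -0.09, -0.17, -0.15 and -0.22 in AP cows F to J. Only cow F went the other way, and the mean change was -0.18 (95% interval -0.35 to -0.0031, adjusted p = 0.411 in limma). This and the other intervals for changes across calving come from the fit without the cow as a block, so they do not use the pairing. CD3D, a signalling chain of the T cell receptor, was also lower in 9 of 10 cows, with changes of -0.30, -0.32, -1.10, -0.14 and -0.01 in LP and -0.45, 0.19, -0.28, -0.02 and -0.34 in AP. Cow G was its exception and cow C its extreme. The mean was -0.28 (95% interval -0.57 to 0.02), or -0.17 when that array was left out. With the cow as a block, the unadjusted p of CD3D in limma was 0.019.

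NKG7 was lower in 9 of 10 cows too, with changes of -0.67, -0.27, 0.23, -0.26 and -0.11 in LP and -0.21, -0.10, -0.11, -0.04 and -0.25 in AP. Here the array of cow C was the exception, and the mean change was -0.18 (95% interval -0.46 to 0.10 without the block). With the cow as a block, the unadjusted p of NKG7 in limma was 0.046. KLRK1 was lower in 8 of 10 cows and CD8A in 7. CD3E, CD3G and GZMA were lower in 6 each, and CD2 and GZMB in 5 each, no more than the number in which they were higher. The authors' deposited table gives unadjusted paired p-values of 0.033 for CD3D, 0.0335 for NKG7, 0.0354 for PRF1 and 0.061 for CD8A, with the other 6 genes at 0.15 or above.

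**Figure D3:**
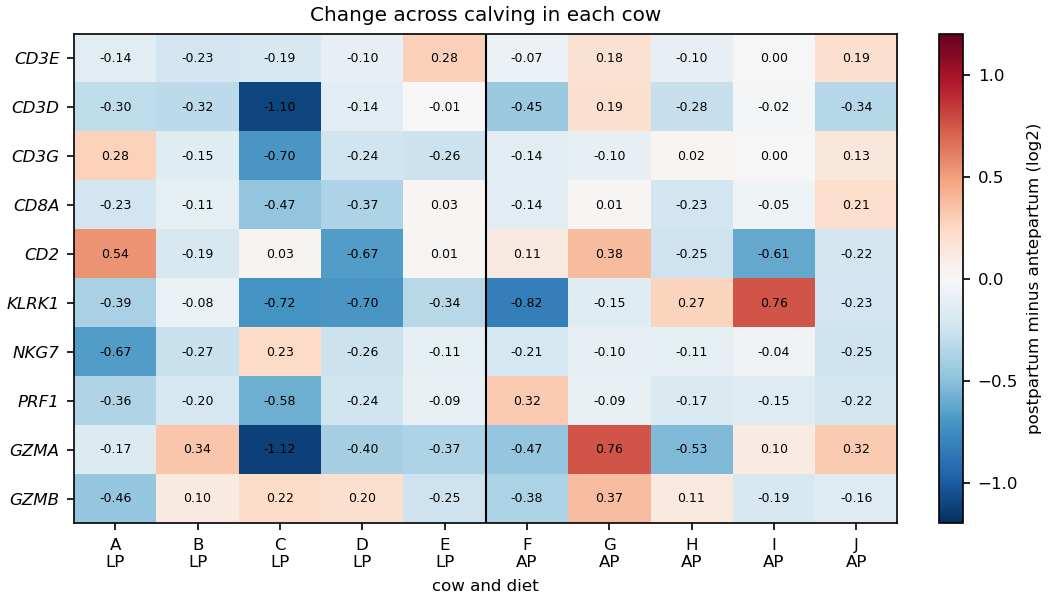
Change across calving (postpartum minus antepartum, log2) of each gene in each cow, LP cows A to E on the left and AP cows F to J on the right, with blue for lower and red for higher postpartum. PRF1, CD3D and NKG7 are lower in 9 of 10 cows each, and the largest drops are those of GZMA (-1.12) and CD3D (-1.10) in cow C.

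Within the LP cows, all 10 genes had a lower mean postpartum, with a median of -0.22. In limma 0 of 10 passed after adjustment (0.015% of all genes did, lowest adjusted p = 0.781), and 1 of 10, PRF1 at -0.29, reached an unadjusted p under 0.05 (5.96% of all genes). With the cow as a block 4 of 10 did, KLRK1 (-0.44), CD3D (-0.37), PRF1 and CD8A (-0.23), where 7.77% of all genes reached that level, and the lowest adjusted p was 0.54. KLRK1 was lower in all 5 LP cows, by 0.08 (cow B) to 0.72 (cow C). With the cow C postpartum array left out, the LP median was -0.11, and no gene reached an unadjusted p under 0.05 in the fit without the block.

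Within the AP cows 8 of 10 genes had a lower mean postpartum, between -0.18 (CD3D) and 0.04 (CD3E), with a median of -0.04 against -0.0237 over all genes. None passed (0.415% of all genes did, lowest adjusted p = 0.896), and none reached an unadjusted p under 0.05 (9.2% of all genes), with or without the block. NKG7 was lower in all 5 AP cows, by 0.04 (cow I) to 0.25 (cow J). KLRK1 had the widest range in AP, from -0.82 in cow F to 0.76 in cow I.

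Whether the change across calving differed between the diets was tested as an interaction. It was negative, with the change in LP below that in AP, for 8 of 10 genes, with a median of -0.19, and ranged from -0.41 for KLRK1 (95% interval -1.40 to 0.58) to 0.06 for CD2. The KLRK1 interval is from the fit without the cow as a block. None passed in limma (0 of 10, where 0.0% of all genes passed, adjusted p = 0.9997), and none reached an unadjusted p under 0.05 (2.79% of all genes), with or without the cow as a block. Without the postpartum array of cow C the median interaction was -0.09. By cow, the mean change of the 10 genes was lowest in LP cow C (-0.44) and LP cow D (-0.29), and above 0 only in AP cow G (0.15).

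The genes were then compared from cow to cow. At each time, the signal of each gene was correlated across the 10 cows with the mean signal of the other 9, giving 20 correlations that are described here without a p, because the list was chosen with earlier results known. All cows of a time share the array platform and its normalization, and cows of a diet share that diet. By Pearson r, GZMA followed the other genes most closely, with 0.92 postpartum and 0.91 antepartum (Spearman rho 0.89 and 0.88). CD3D came next by r postpartum (r = 0.80, rho = 0.66) and CD3G antepartum (r = 0.86, rho = 0.73). The order by rho was different. Antepartum, CD3D had the highest rho (0.90), above GZMA, and CD3E (0.83) was above CD3G. Postpartum, GZMA was followed by CD8A (0.73). The lowest r was that of GZMB, with 0.16 postpartum and -0.04 antepartum. This rested on cow D, without which r of GZMB was 0.501 postpartum and 0.502 antepartum.

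Cows D and E were the farthest from the median of the other genes at both times, and leaving out the 2 farthest cows narrows the range over which r is taken. Without them, GZMA kept 0.81 postpartum and 0.69 antepartum, and CD3D 0.79 and 0.94. KLRK1, at 0.74 postpartum and 0.69 antepartum over all cows, was at 0.33 and 0.21 without them, and at 0.60 or above when any 1 cow was left out. CD3E similarly had 0.70 and 0.74 over all cows and 0.19 and 0.48 without them. CD8A went from 0.66 and 0.64 to 0.29 and 0.31, and CD2 from 0.45 and 0.60 to 0.04 and 0.17. CD3G went from 0.47 and 0.86 to 0.16 and 0.535, and PRF1 from 0.72 and 0.57 to 0.55 and 0.44. NKG7 went from 0.25 and 0.74 to -0.14 and 0.68, and with only cow C left out its postpartum r was 0.67. GZMB rose from 0.16 and -0.04 to 0.55 and 0.33. Around the diet means, which removes the difference between LP and AP, r of GZMA was 0.93 postpartum and 0.91 antepartum, whereas that of PRF1 was 0.67 postpartum and 0.12 antepartum, against 0.72 and 0.57 before.

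Pair by pair, 40 of the 45 correlations between 2 of the genes were above 0 at each time. These pairs were taken over all 10 cows, D and E included. Their mean r was 0.38 postpartum and 0.47 antepartum, against 0.0076 and 0.0041 over all pairs of genes. The 36 pairs without GZMB had a median r of 0.49 postpartum, with 35 above 0, and of 0.64 antepartum, with 36 above 0. The 9 pairs with GZMB had medians of 0.10 and -0.07, a split that was made after the values were seen. The closest pairs were CD3E with CD8A postpartum (r = 0.90) and CD3G with GZMA antepartum (r = 0.94). A second, dimmer probe set that the deposited annotation also labels GZMB belongs by its accession to the granzyme-like gene LOC508646, and its r with the brighter one was 0.44 postpartum and -0.05 antepartum.

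**Figure D4:**
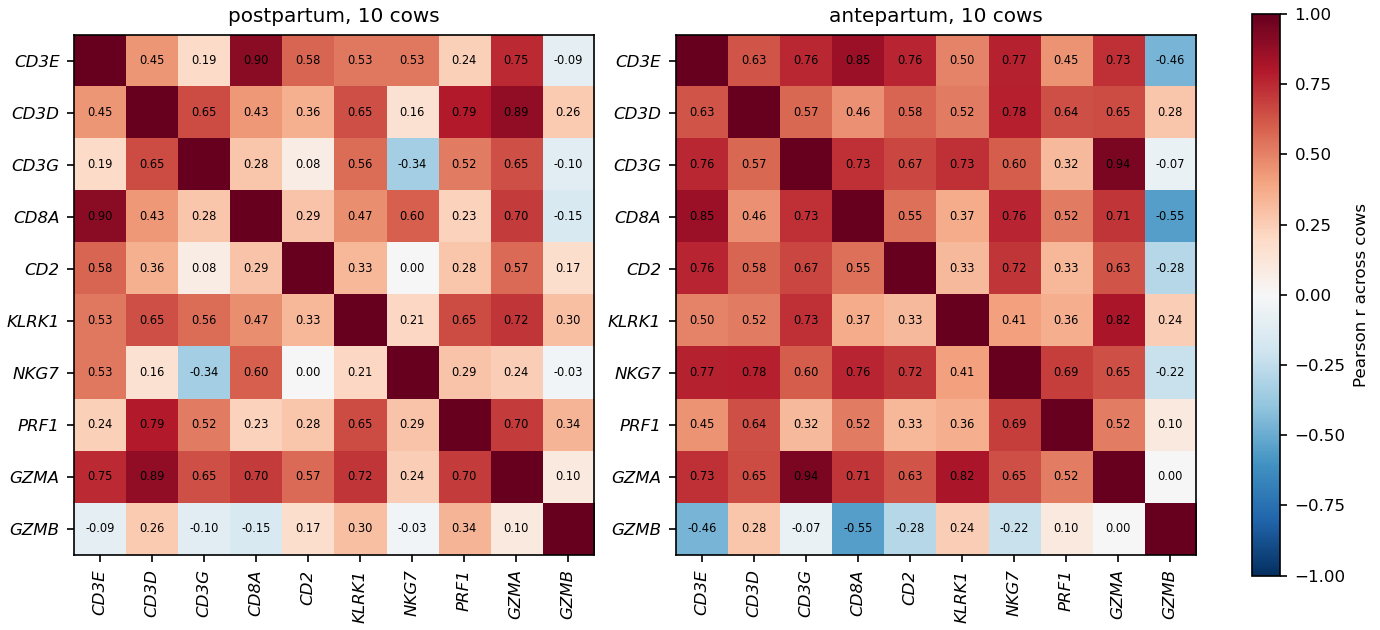
Pearson correlation between each pair of the 10 genes across the 10 cows, postpartum on the left and antepartum on the right, red for positive and blue for negative. All squares outside the GZMB row and column are positive antepartum, with values from 0.32 to 0.94, and GZMB lies between -0.55 and 0.28.

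The genes outside the list that most resembled it were found by their correlation with the mean of the 10 genes, each scaled to an SD of 1, over the 20 arrays after the group means were subtracted. The closest was IDO1 (r = 0.93), which encodes a tryptophan-degrading enzyme induced by interferon gamma, followed by GZMK (0.90), another granzyme, and IRF1 (0.87), an interferon-induced transcription factor. CD180, ALCAM, TNIP3, FCGR3A, MTTP, LRMP and ITGAL followed with values between 0.84 and 0.80. With the cow C postpartum array left out, the 10 values lay between 0.76 and 0.91. The median r was -0.02 over all other genes.

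IDO1 was picked for its likeness to these genes in the same arrays, so its values only show what that likeness looks like. Antepartum it read 6.40, 7.15, 6.75, 8.11 and 7.87 in LP cows, against 6.96, 5.79, 6.87, 6.48 and 6.77 in AP cows, with cows D and E again the highest. Postpartum it read 6.12, 6.42, 5.79, 7.39 and 7.90 in LP, against 5.91, 6.22, 6.11, 6.13 and 6.46 in AP. Cows D and E were above every AP cow at both times. Its antepartum diet difference was 0.68 (adjusted p = 0.9999 in limma).

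Other genes were taken from 8 lists tied to T and NK cell function, of which 129 of 144 genes were measured. Not all are particular to T and NK cells, since the lists also hold ligands of KLRK1 and CD2 and genes that other immune cells use, such as FCGR3A. In LP against AP antepartum, 96 of 129 were higher in LP (48.9% of all genes were), with a median of 0.10, and 20 reached an unadjusted p under 0.05 (2.45% of all genes). Postpartum 95 were higher in LP (50.8% of all genes were), and 7 reached that level, a share no larger than the 5.66% of all genes. Across calving over both diets 26 of 129 were higher postpartum (46.1% of all genes were), with a median of -0.08, and 24 reached that level (11.9% of all genes). In limma 0 of the 129 passed after adjustment in each of these comparisons. Of all genes, 0.005% passed in each of the 2 diet comparisons and 1.5% across calving.

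By list, NK receptors and adaptors had 17 of 20 genes higher in LP antepartum, with a median of 0.23. KLRF1, an activating NK receptor, read 5.31, 3.67, 3.31, 4.27 and 4.91 in the LP cows, against 3.31, 3.12, 3.11, 3.35 and 3.17 in the AP cows. Cows A, B, D and E were above every AP cow and cow C was within their range, with a difference of 1.08 and a standard error of 0.29 (adjusted p = 0.9999 in limma). The AP signals of KLRF1 lay below 5.06, the lower quartile of gene means, and without a detection call they were not shown to be above background, so the size of this difference is uncertain. FCGR3A, an antibody receptor found on NK cells and also on macrophages, differed by 0.60. Among 17 cytotoxic effectors, 10 were higher in LP, and GNLY, a granule protein that attacks membranes, differed by 1.38 with a standard error of 0.54 (adjusted p = 0.9999).

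GNLY antepartum signals were 4.42, 6.21, 5.70, 6.36 and 6.23 in LP, against 4.91, 4.31, 2.90, 4.64 and 5.27 in AP. Cow A was again the low LP cow, inside the AP range, and the other 4 were above every AP cow. The mean GNLY signal of 4.40 in AP was also below that lower quartile. Among homing and activation genes 18 of 22 were higher in LP antepartum (CD69 by 0.30, ITGB2 by 0.39), and among T cell receptor signalling genes 18 of 21 (LAT by 0.28, PTPN22 by 0.24). The counts were nearer to even among T cell receptor chains and co-receptors, 8 of 14 (ICOS by 0.37, LAG3 by 0.27), and lineage transcription factors, 9 of 14 (EOMES by 0.68, PRDM1 by 0.32). In the remaining lists, 6 of 7 granule release genes were higher (AP3B1 by 0.09, UNC13D at -0.07), and so were 10 of 14 ligand and interleukin genes (IL7R by 0.54, IL18RAP by 0.30). No gene named from these lists passed after adjustment.

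Across calving, 20 of 22 homing and activation genes and 15 of 17 cytotoxic effectors were lower postpartum. CXCR6, a chemokine receptor of T and NK cells in the liver, was lower in 10 of 10 cows, at -0.31 with a standard error of 0.08 (adjusted p = 0.0661 in limma). ITGB7 was at -0.27, GZMM at -0.24, BCL11B at -0.29, PDCD1 at -0.21 and CD7 at -0.24, none of them past the adjusted threshold. SLAMF6, a receptor of the SLAM family on T and NK cells, was lower in 9 of 10 cows at -0.32, with an adjusted p of 0.209 in limma and of 0.0401 with the cow as a block, and no other gene named from the lists passed with the block. In that block fit 381 of all 20011 genes passed, and SLAMF6 was named for its low p within its list. Higher postpartum, without passing, were CTSC (0.50), which encodes the protease that activates granzymes, S1PR5 (0.29), LYST (0.25) and RAB27A (0.16). SLA2 was at -0.18, IL18RAP at -0.23 and IL18 at -0.34. CCL5, a chemokine, differed by 0.35 between the diets antepartum.

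Markers of another cell type moved in the same direction as the T and NK cell genes. The 13 macrophage markers had a median difference of 0.41 in LP over AP antepartum, and their mean log2 signal lay between 8.19 and 8.78 in LP and between 8.07 and 8.38 in AP cows. Across calving 12 of the 13 were lower postpartum, and C1QC (-0.56, adjusted p = 0.034 in limma) and SIGLEC1 (-0.34, adjusted p = 0.0167 in limma) passed, 2 of 13 where 1.5% of all genes did, named here after their values were seen. Correlated over arrays with the mean of the 10 genes, the macrophage markers had a median r of 0.42, with 10 of 13 above 0, against 0.21 for the 129 T and NK list genes. B and plasma cell markers were split antepartum, 6 of 12 higher in LP with a median of -0.03, as were neutrophil markers, 6 of 11, and dendritic cell markers, 4 of 7. Postpartum these markers lay mostly on the LP side, like the T and NK cell genes, with 11 of 12 B and plasma cell markers higher in LP (median 0.09), 8 of 11 neutrophil markers (median 0.15), 7 of 7 dendritic cell markers (median 0.09) and 11 of 13 macrophage markers (median 0.12). This lean was not limited to immune cells, and the LP postpartum group holds the outlying array of cow C. Higher in LP were 8 of 8 fibroblast (median 1.33), 6 of 6 adipocyte, 8 of 8 skeletal muscle and 6 of 7 cholangiocyte markers. So were 6 of 9 endothelial, 5 of 7 erythroid and 4 of 7 platelet markers, whereas 11 of 14 hepatocyte and 12 of 14 proliferation markers were lower. Antepartum, 0 of 8 fibroblast (median -0.21), 1 of 8 skeletal muscle (median -0.39), 2 of 6 adipocyte and 2 of 7 cholangiocyte markers were higher in LP. So were 6 of 9 endothelial, 2 of 7 erythroid, 3 of 7 platelet, 8 of 14 hepatocyte and 8 of 14 proliferation markers. The antepartum array of AP cow F had the highest fibroblast (8.17) and skeletal muscle (7.13) means of its group. The part of these other cells in the diet differences at either time, and of macrophages in the changes across calving and the correlations, was not tested.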

How the data were processed

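Liver RNA of 10 cows was hybridised to 20 Affymetrix bovine gene arrays, 1 per sample. Groups came from the diet and time labels, and cows from the animal number in each title, which occurs once per time. The authors deposited log2 signals for 24333 probe sets. The workbook that the authors deposited names SST-RMA, while Affymetrix Expression Console 1.4 and RMA come from the submitters' processing notes. RMA brings all arrays to nearly 1 distribution, which hides any common shift of every gene. The authors' paired p-values and log2 ratios were deposited beside the signals. A rounded copy of the signals (largest difference 0.005) served as an alternative. No detection call was used, and precision is limited by having 5 arrays in a group.

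Of the probe sets, 20421 carry 1 symbol and 3912 carry none or several and were left out. The brightest probe set was kept for the 386 symbols with several, which gave 20011 genes with no filter on dim genes. The tests were those of limma 3.58.1 (lmFit and eBayes, two-sided, R 4.3.3) on 4 group means over all arrays, with Benjamini-Hochberg adjustment over 20011 genes. The fitting code was first tested on simulated data with known changes. The same animal gave both arrays of a pair, so the numbers pair the samples: residuals of same-cow arrays correlated with a median r of 0.167 (over 0.1 in 8 of 10 cows), against -0.041 between cows. The fit without the block was kept as main. For LP over AP, the block was fitted as a random effect (correlation 0.115). For the changes across calving and the interaction, each cow had its own fixed term instead.

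The members and lists were chosen with earlier results of these data known. For that reason the permutation test (100000 resamples) planned for the correlations with the mean of the other members is not given. Named list genes were those that passed, up to 3 per direction, or otherwise the 2 of lowest unadjusted p for time and the 2 for diet antepartum. A few list genes selected this way are not reported here. The genes most like the members were the 10 of highest r, leaving out symbols that start with LOC. Alternatives were the cow as a block, quantile normalization, median centring, a filter at the lower quartile of gene means (5.06), a fit to the groups compared alone, array weights, a robust trended variance, the mean of probe sets, all probe sets, the rounded values, and leaving out each cow or only its outlying postpartum array (cow C).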

Additional observations from a re-analysis of the deposited data

Results flagged for a closer look

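NKG7 in the AP postpartum group had 1 cow far from the others. Cow I read 7.10, the nearest other cow 6.74 and the lowest 6.65, so that the gap made up 0.808 of the range of the group, above the Dixon critical value of 0.71 for 5 samples. The 10 genes in 4 groups gave 40 such tests, and chance alone sets off about 1 in 20 groups. Cow I also had the highest NKG7 signal of the AP cows antepartum, at 7.14.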

How the results depend on the processing

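No gene of the 10 passed the adjusted threshold in any comparison under any alternative, the replicate block included, under which the lowest adjusted p over both diets was 0.236 (CD3D). At an unadjusted p under 0.05 the counts were 2 for LP over AP antepartum and 1 each for time over both diets and in LP. Among 1254 refitted differences, 46 changed sign, none of them for PRF1. The cause was not tested. LP over AP postpartum, CD3G was 0.0722 and CD8A 0.0045 without the cow C postpartum array, and CD3G 0.0037 with array weights. With array weights, time in LP was 0.0103 for CD2 and 0.0532 for GZMB, time in AP 0.002 for CD3G and 0.0303 for KLRK1, and the CD3D interaction 0.0753, or 0.0277 without the cow C postpartum array. With quantile normalization, CD3G in AP was 0.0356, the CD2 interaction -0.0047 and the GZMB interaction -0.0444, or -0.011 with median centring. Leaving out single cows gave -0.0646 to 0.2919 for CD2 in LP over AP antepartum. LP over AP postpartum it gave -0.0484 to 0.1913 for CD3E, -0.1367 to 0.0722 for CD3G and -0.0738 to 0.0913 for CD8A. For time over both diets it gave -0.0604 to 0.0037 for CD3E and -0.0958 to 0.0094 for GZMB, and in LP -0.2037 to 0.0989 for CD2 and -0.1021 to 0.0683 for GZMB. In AP it gave -0.0533 to 0.0148 for CD3G, -0.1007 to 0.0092 for CD8A, -0.244 to 0.0032 for CD2, -0.2314 to 0.1614 for KLRK1, -0.1444 to 0.1774 for GZMA and -0.1539 to 0.0332 for GZMB. For the interaction it gave -0.0841 to 0.2184 for CD2, -0.1843 to 0.0399 for NKG7 and -0.0708 to 0.1177 for GZMB. Of the 20 correlations with the mean of the other genes, 19 were above 0, and 18 to 20 under the alternatives. That of GZMB was 0.0388 antepartum with quantile normalization, and without single cows -0.31 to 0.502 antepartum and -0.037 to 0.501 postpartum. GZMA lies below the lower quartile and was not tested under that filter.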
